A study of Mus musculus with 8 samples.

Results

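The genes described here are the interferon regulatory factors Irf1, Irf2, Irf3, Irf4, Irf5, Irf7, Irf8 and Irf9 in the soleus muscle (SOL) of mice. They are 8 of the 24054 genes in the deposited table and were chosen by name, not by their values. The study asked what IRF4 does in skeletal muscle and compared MI4KO mice with flox mice. Both groups were male C57BL/6 mice that the labels place on a high fat diet, and both carried floxed alleles of Irf4. The 4 flox mice had no Cre, whereas the 4 MI4KO mice also carried Myl1-Cre, which acts in skeletal muscle fibers. Endothelial cells, macrophages, fibroblasts and the other cells of the muscle are not targeted by this Cre, and their Irf4 transcripts remain part of the tissue value. The ages of the sequenced mice are not given in the sources used here. Mice are numbered 1 to 4 within a group in ascending order of the animal numbers in the labels.

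IRF proteins are transcription factors that share a DNA-binding domain and recognize GAAA repeats, which occur in the interferon-stimulated response elements (ISRE) of antiviral genes. IRF3 and IRF7 are activated downstream of sensors of viral nucleic acid and switch on the interferon genes, and IRF5 acts downstream of Toll-like receptors in inflammatory cells. IRF9 joins STAT2 in the complex that carries the type I interferon signal to its targets. IRF1 is induced by interferon gamma and activates, whereas IRF2 binds the same elements and mostly represses. IRF4 and IRF8 are best known from lymphocytes and myeloid cells, where they bind DNA weakly alone and join partners such as PU.1, and IRF4 has also been studied in fat and muscle.

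The values are normalized CPM, which are read counts put on a common library size and then corrected with TMM factors, so that most genes keep their level between mice. Whole reads could be recovered from them, and totals ran from 13417512 to 16384565 reads per mouse, so that 3 reads on a gene correspond to a value of 0.181 to 0.225. The libraries held muscle: the summed slow fiber markers lay between 33318 and 43759 in all 8 mice. Flox mouse 1 held liver transcripts (summed markers 104.6, at most 0.763 in the other mice), and MI4KO mouse 3 had the highest summed neutrophil markers (6.38, at most 2.36 in the other mice). Myl1, the locus that carries Cre, had a mean of 3397 ± 233 in the flox group and 2558 ± 290 in the MI4KO group (SD, n = 4 each), without overlap (log2 fold change -0.41, limma unadjusted p = 0.00135, adjusted p = 1.0). The genes nearest Irf4 did not show such a difference, with log2 fold changes of 0.00 for Uqcrfs1, 0.03 for Dusp22 and -0.03 for Exoc2. Groups without overlap and lower in MI4KO mice, as for Myl1, were found for 1.7% of all genes tested.

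All 8 members were detected in every mouse, and the family was led by the widely expressed members. Divided by the length of the longest coding transcript, Irf3 had the highest level in flox mice, at 8.34 ± 0.493 normalized CPM per kilobase (SD, n = 4). Irf2 followed at 6.35 ± 0.572, Irf1 at 4.32 ± 0.487 and Irf5 at 3.12 ± 0.455 per kilobase. The next neighbours, Irf9 at 2.07 ± 0.187 and Irf7 at 2.01 ± 0.755 per kilobase, overlapped in range. Irf8 was at 0.603 ± 0.129 and Irf4 was last, at 0.283 ± 0.0946 per kilobase. In flox mice every other pair of neighbours in this order was apart in all values, while in MI4KO mice Irf3 overlapped with Irf2 and Irf5 with Irf9. Irf4 made up 0.550% to 1.34% of the summed level per kilobase of the 8 members in flox mice and 0.205% to 0.889% in MI4KO mice.

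The promoters of the members in RefSeq (GRCm38.p6, most upstream start listed for each gene, 250 bases before to 50 after it) were searched on both strands for 4 motifs. These were the ISRE core (GAAA, any 2 bases, GAAA), the STAT-binding GAS element TTCNNNGAA, the composite element that IRF4 and IRF8 share with PU.1 (GGAA, any 2 bases, GAAA), and TATAAA. Of all 32851 promoters of this length, 3.44% held the ISRE core, 8.30% the GAS element, 2.72% the composite element and 13.6% TATAAA. Among the members, Irf1, Irf2 and Irf8 held a GAS element and Irf2 alone held the ISRE core and the composite element, which overlap there. TATAAA stood 26 bases before the start of Irf4, 29 before that of Irf7 and 31 before that of Irf8. Irf3, Irf5 and Irf9 matched none of the 4 motifs, and neither did the second start listed for Irf1, Irf8 and Irf9. The stretches of Irf1 (chr11:53769898-53769957), Irf2 (chr8:46739495-46739554) and Irf8 (chr8:120736170-120736229), all on the plus strand, are shown because they hold these elements. The 250 bases before the start are shown for Irf4 (chr13:30748983-30749232, plus strand) and Irf5 (chr6:29526375-29526624, plus strand), the members that were lower in MI4KO mice. The same length is shown for Irf7 (chr7:141266425-141266674, minus strand) and Irf9 (chr14:55603735-55603984, plus strand), the members set against the type I interferon targets across mice below. Capitals mark matches to the motifs.
Irf1: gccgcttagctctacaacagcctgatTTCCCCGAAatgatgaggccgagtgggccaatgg
Irf2: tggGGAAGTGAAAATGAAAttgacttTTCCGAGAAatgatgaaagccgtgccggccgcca
Irf8: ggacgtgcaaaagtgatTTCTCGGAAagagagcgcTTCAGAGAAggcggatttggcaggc
Irf4: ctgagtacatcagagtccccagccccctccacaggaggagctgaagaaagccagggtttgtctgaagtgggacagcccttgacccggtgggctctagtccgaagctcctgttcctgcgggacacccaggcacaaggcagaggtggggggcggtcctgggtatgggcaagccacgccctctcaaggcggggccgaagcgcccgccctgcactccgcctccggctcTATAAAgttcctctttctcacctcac
Irf5: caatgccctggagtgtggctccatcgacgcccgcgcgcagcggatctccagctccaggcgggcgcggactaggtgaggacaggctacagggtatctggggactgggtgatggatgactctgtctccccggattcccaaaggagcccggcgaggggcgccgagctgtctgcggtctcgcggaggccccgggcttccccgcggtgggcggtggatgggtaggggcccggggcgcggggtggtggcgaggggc
Irf7: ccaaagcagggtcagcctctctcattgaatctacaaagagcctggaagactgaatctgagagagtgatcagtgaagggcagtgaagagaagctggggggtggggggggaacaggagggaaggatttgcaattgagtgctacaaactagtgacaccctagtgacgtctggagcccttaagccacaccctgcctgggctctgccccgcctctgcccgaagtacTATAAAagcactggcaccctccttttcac
Irf9: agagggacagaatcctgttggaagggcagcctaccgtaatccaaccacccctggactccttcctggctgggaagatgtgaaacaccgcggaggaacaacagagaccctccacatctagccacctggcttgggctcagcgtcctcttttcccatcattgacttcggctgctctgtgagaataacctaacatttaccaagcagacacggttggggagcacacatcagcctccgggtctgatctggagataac
A match describes the letters of the window and is not evidence of binding, and a window without a match says nothing about the factor.

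Between MI4KO and flox SOL, Irf4 and Irf5 were lower at an unadjusted p under 0.05, and the other 6 members did not pass. The groups were compared with limma on log2(value + 1) over 11865 genes, all 8 members among them; this scale understates the change of genes with low values. The count of 2 members of 8 stands beside 3.36% of all genes tested, with 2.95% of all genes passing in the lower direction and 0.413% in the higher one. No member had an adjusted p under 0.05, where 0% of all genes passed in limma, edgeR and DESeq2 alike, and none reached the paper's limits of 1.5-fold and p under 0.05, which 0.219% of all genes passed. Irf4 did reach these limits under 3 of 18 alternatives: with a pseudocount of 0.5 (log2 fold change -0.61, limma unadjusted p = 0.0424), with one of 0.1 (-0.88, limma unadjusted p = 0.0487) and without flox mouse 1 (-0.60, limma unadjusted p = 0.00806). The direction of the calls over all genes depended on the scaling: 350 were lower and 49 higher here, 259 and 136 after median-of-ratios scaling, and 132 and 263 when each mouse was scaled to an equal sum. The log2 fold change was below 0 for 6 of the 8 members under all 3 scalings, against 56.2%, 48.3% and 40.1% of all genes. Its median was -0.16 over the members and -0.01 over all genes. The limma p-values set the difference between the groups against the spread between these 8 animals, with the variance of each gene drawn toward that of other genes. In bulk muscle, fewer cells of a type and less RNA per cell cannot be told apart.

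**Figure D1:**
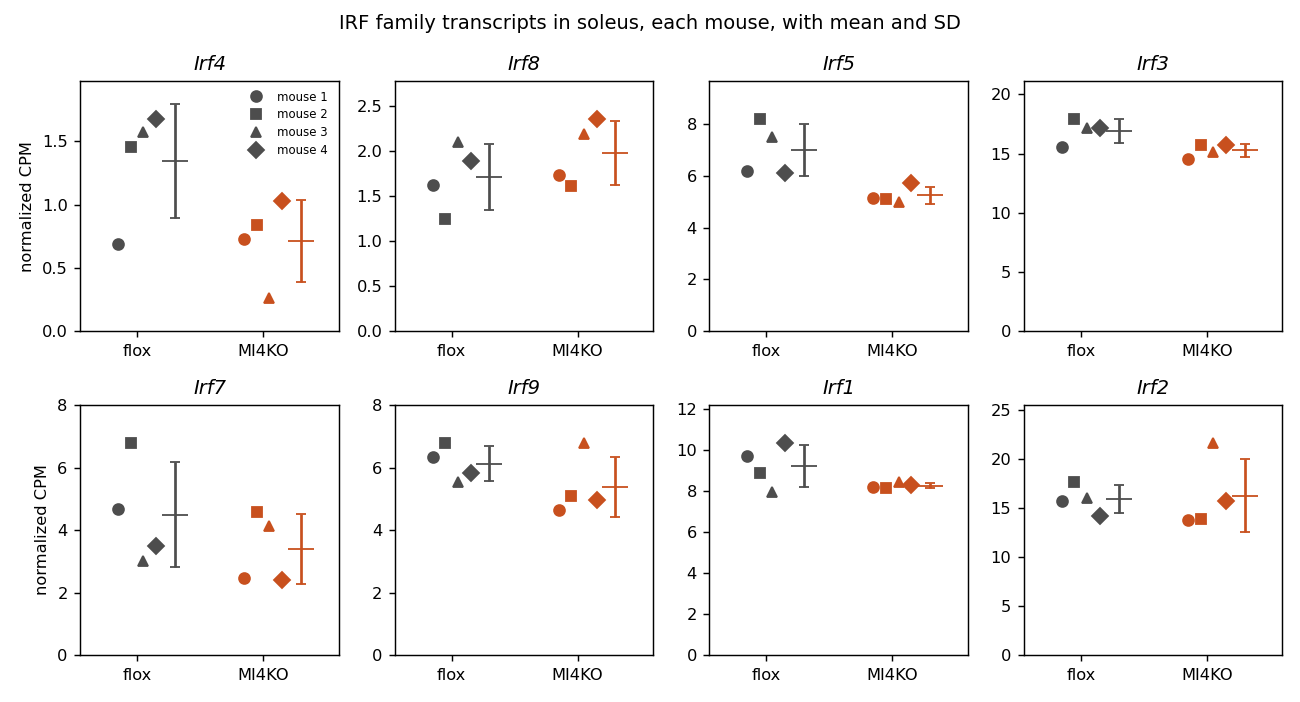
Normalized CPM of the 8 members in each mouse (points, 1 symbol per mouse number) with the group mean and SD (bars), flox in grey and MI4KO in orange, each axis starting at 0. Irf5 is lower in every MI4KO mouse than in any flox mouse, whereas flox mouse 1 lies among the MI4KO mice for Irf4.

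**Figure D2:**
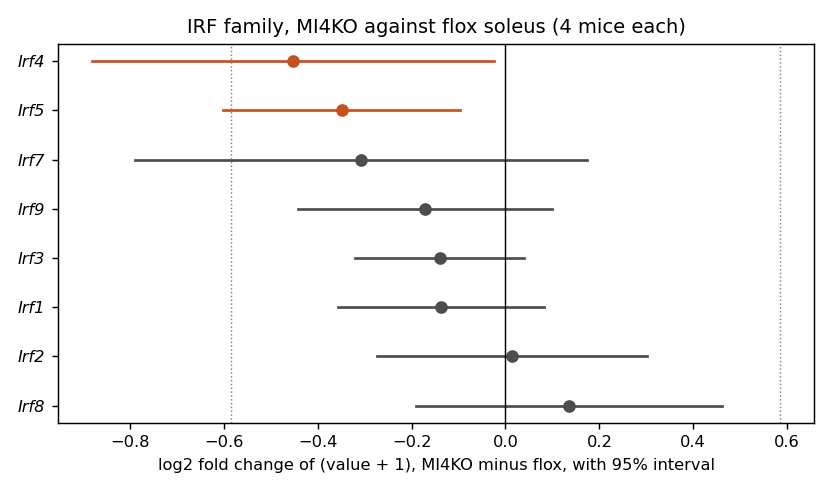
Log2 fold change of (value + 1), MI4KO minus flox, of the 8 members with the 95% interval from limma, 4 mice per group, with members at an unadjusted p under 0.05 in orange and dotted lines at a fold of 1.5. The intervals of Irf4 and Irf5 lie below 0 and those of the other 6 members cross it.

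Irf4 (chromosome 13, 30749226 to 30766976, plus strand, GRCm38), the deleted gene, was at 0.686, 1.46, 1.58 and 1.68 in flox mice 1 to 4. The MI4KO mice had 0.725, 0.840, 0.266 and 1.03. Of the flox mice, 3 lay above every MI4KO mouse, but flox mouse 1 lay below 3 of the 4 MI4KO mice, so the groups overlap. The means were 1.35 ± 0.451 (SD, n = 4) and 0.715 ± 0.324 (SD, n = 4), a ratio of 0.530. MI4KO minus flox gave a log2 fold change of -0.45 (standard error 0.20, 95% interval -0.88 to -0.02, limma unadjusted p = 0.0402, adjusted p = 1.0). By exact two-sided permutation of the same 8 values, p was 0.114. These values rest on 76 reads in the flox mice and 44 in the MI4KO mice, between 4 and 23 per mouse. The value sums reads over the whole gene, and transcripts without the deleted part cannot be told from intact ones, nor muscle fibers from other cells.

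The Irf4 difference depended on the mice. Without flox mouse 1 the ratio was 0.455 (limma unadjusted p = 0.00806), and without MI4KO mouse 3 it was 0.641 (limma unadjusted p = 0.120). Leaving out flox mouse 2, 3 or 4 or MI4KO mouse 1 also took the limma unadjusted p of Irf4 to 0.05 or above. The animal numbers in the labels fall into a lower and a higher range, and the labels do not say what these ranges stand for. Within the higher range, 3 flox and 2 MI4KO mice, the ratio was 0.412. Within the lower range it was 1.14, from flox mouse 1 and 2 MI4KO mice. Irf4 kept an unadjusted p under 0.05 in 8 of 18 alternative ways of processing the data, with p between 0.00806 and 0.120 by limma, edgeR and DESeq2, and it was lower in MI4KO mice in all 18.

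**Figure D3:**
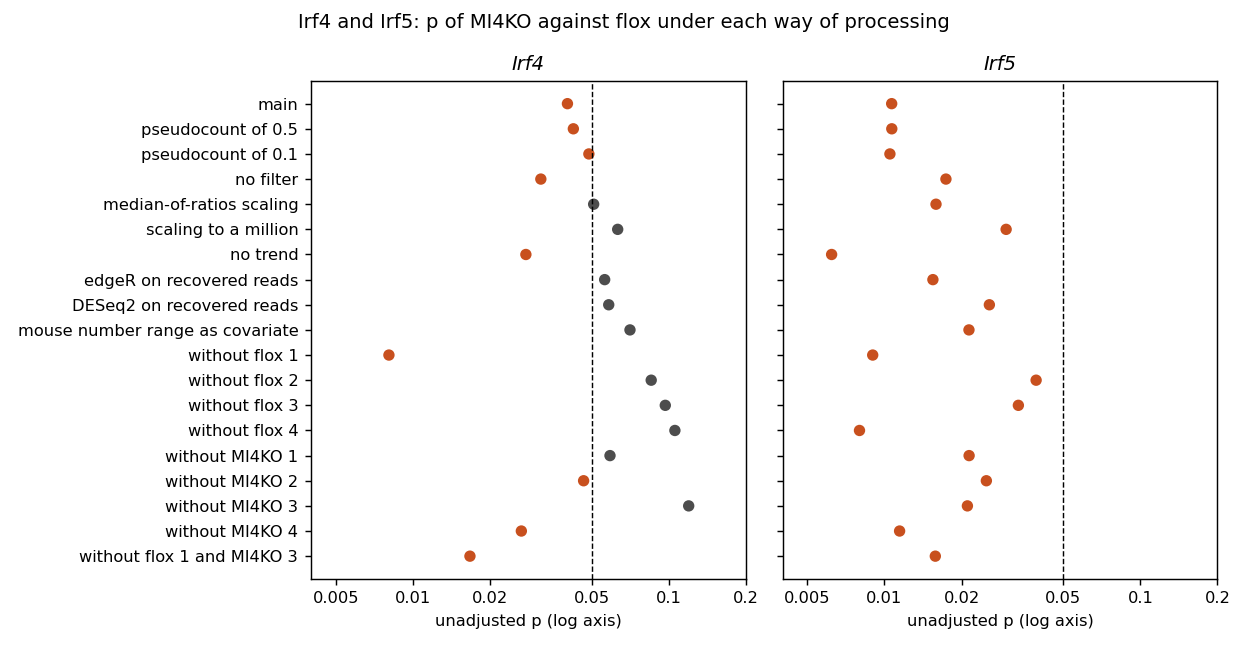
Unadjusted p of Irf4 (left) and Irf5 (right) for MI4KO against flox (log axis, dashed line at 0.05) under the main settings and each of 18 alternatives, in orange where p is under 0.05. Irf5 is left of the line throughout, and Irf4 is left of it in 8 of the 18 alternatives.

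Lymphocyte markers had low values in these muscles, as Irf4 itself did (0.266 to 1.68 over the 8 mice). The summed B cell markers were at most 2.01 and the summed T cell markers at most 0.776 in any mouse, and Pax5, a defining B cell factor, had 2 reads over all 8 mice. Cd22, a B cell surface receptor with 86 reads, was at 0.699 in flox and 0.758 in MI4KO mice. Of the plasma cell markers, the antibody joining chain gene (Igj in the table) was at 0.0881 in flox and 0.196 in MI4KO mice, and Sdc1 was at 3.41 and 3.32.

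Irf8 (chromosome 8, 120736358 to 120756694, plus strand), the closest relative of Irf4, was at 1.62, 1.25, 2.1 and 1.89 in flox mice 1 to 4. MI4KO mice 1 to 4 were at 1.74, 1.62, 2.19 and 2.36. The lowest value was in flox mouse 2 and the highest in MI4KO mouse 4, and the groups overlap over most of their range. The log2 fold change was 0.13 (standard error 0.15, 95% interval -0.19 to 0.46, limma unadjusted p = 0.387).

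Irf5 (chromosome 6, 29526625 to 29541871, plus strand) was at 6.17, 8.19, 7.50 and 6.12 in flox mice 1 to 4. The values of MI4KO mice 1 to 4 were 5.15, 5.11, 4.99 and 5.74. Every MI4KO mouse lay below every flox mouse, with the smallest gap between MI4KO mouse 4 and flox mouse 4. Irf5 was the 1 member of 8 without overlap, which held for 2.07% of all genes tested, 1.7% in this direction and 0.371% in the other. The means were 7.0 ± 1.02 (SD, n = 4) and 5.25 ± 0.337 (SD, n = 4), a ratio of 0.750. On the log2 scale the difference was -0.35 (standard error 0.12, 95% interval -0.60 to -0.10, limma unadjusted p = 0.0107, adjusted p = 1.0). By exact two-sided permutation p was 0.0286, the smallest that 4 mice against 4 allow. The difference kept an unadjusted p under 0.05 in all 18 alternatives, between 0.00621 and 0.0391, and the ratio was 0.831 within the lower and 0.738 within the higher range of animal numbers. In the GENCODE M21 annotation, 14.1% of the exon bases of Irf5 overlap Tnpo3 on the opposite strand. Whether the counting used strand is not given in the sources used here, and Tnpo3 was at 64.5 ± 3.60 in flox mice and 61.8 ± 3.44 in MI4KO mice (SD, n = 4, log2 fold change -0.06, limma unadjusted p = 0.422). For Irf1, Irf3, Irf7 and Irf9, between 1.19% and 3.40% of the exon bases overlap another gene.

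The endothelial markers, like Irf5, had lower means in MI4KO mice. All 7 of 7 (Pecam1, Cdh5, Kdr, Tek, Cldn5, Emcn and Tie1) had a log2 fold change below 0, against 56.2% of all genes, with a median of -0.21. They were not alone in this: all 8 slow fiber and all 5 fibroblast markers were also below 0 (medians -0.07 and -0.08). So were 3 of 4 adipocyte (median -0.33), 3 of 4 Schwann cell (-0.19) and 2 of 3 satellite cell markers (-0.08). Of the fast fiber markers, 5 of 8 were above 0 (median 0.03). Kdr and Cdh5, the receptor for vascular endothelial growth factor and the cadherin of endothelial junctions, were lower at an unadjusted p under 0.05, as were 2.95% of all genes. Kdr was at 63.3 ± 4.46 in flox and 49.9 ± 12.5 in MI4KO mice, and Cdh5 at 130.3 ± 11.9 and 107 ± 17.3 (SD, n = 4, limma unadjusted p = 0.0239 and 0.0281, adjusted p = 1.0 for both). The summed markers were 349.6 to 426.1 in flox mice and 269.9 to 370.6 in MI4KO mice. Kdr passed in 12 and Cdh5 in 13 of the 18 alternatives, and the Cdh5 log2 fold change of -0.29 became -0.16 when MI4KO mouse 1 was left out (limma unadjusted p = 0.0833). With each mouse left out, 0 to 4 of the 7 markers passed, 0 without flox mouse 2 or flox mouse 3 and 4 without flox mouse 1. It was 5 of 7 without both flox mouse 1 and MI4KO mouse 3, where 4.71% of all genes were lower, and 0 of 7 after scaling to equal sums. The macrophage markers did not follow Irf5: 7 of 9 tested were above 0, and their sum was 50.5 to 61.3 in flox mice and 52.1 to 69.9 in MI4KO mice. The part of the endothelial difference in the Irf5 value was not tested.

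Irf3 (chromosome 7, 44997648 to 45002848, plus strand) was at 15.5, 17.9, 17.2 and 17.1 in flox mice 1 to 4. In the knockouts it was at 14.5, 15.7, 15.1 and 15.7. All MI4KO mice lay below flox mice 2 to 4, and flox mouse 1 lay among them. MI4KO minus flox gave a log2 fold change of -0.14 (standard error 0.08, 95% interval -0.32 to 0.04, limma unadjusted p = 0.115).

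Irf7 (chromosome 7, 141262706 to 141266481, minus strand) was at 4.68, 6.80, 3.0 and 3.5 in flox mice 1 to 4. MI4KO values, in the same order, were 2.47, 4.59, 4.12 and 2.42. Irf7 varied most between mice of a group relative to counting, with a variance 7.64 times that of counting alone, and flox mouse 2 was the highest. On the log2 scale the difference was -0.31 (standard error 0.22, 95% interval -0.79 to 0.17, limma unadjusted p = 0.189), an interval that includes both no difference and a fold change beyond that of Irf4. Without flox mouse 2 the log2 fold change was -0.12 (limma unadjusted p = 0.563).

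Irf9 (chromosome 14, 55603571 to 55610030, plus strand) was at 6.36, 6.80, 5.55 and 5.83 in flox mice 1 to 4. Among MI4KO mice the values were 4.64, 5.11, 6.78 and 4.96. MI4KO mouse 3 stood near the highest flox mouse, and the other MI4KO mice lay below all flox mice. The log2 fold change was -0.17 (standard error 0.12, 95% interval -0.44 to 0.10, limma unadjusted p = 0.195). Without MI4KO mouse 3 it was -0.27 (limma unadjusted p = 0.0356).

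Irf1 (chromosome 11, 53770014 to 53778374, plus strand) was at 9.73, 8.88, 7.95 and 10.3 in flox mice 1 to 4. MI4KO mice had values of 8.20, 8.15, 8.44 and 8.28. The MI4KO mice were close together and lay inside the flox range, just above flox mouse 3. The difference on the log2 scale was -0.14 (standard error 0.10, 95% interval -0.36 to 0.08, limma unadjusted p = 0.20).

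Irf2 (chromosome 8, 46739732 to 46847458, plus strand) was at 15.6, 17.6, 16.0 and 14.1 in flox mice 1 to 4. The corresponding MI4KO values were 13.8, 13.8, 21.6 and 15.7. MI4KO mouse 3 was the highest of the 8 mice, and the other MI4KO mice lay at or below the middle of the flox range. This gave a log2 fold change of 0.01 (standard error 0.13, 95% interval -0.27 to 0.30, limma unadjusted p = 0.917), and without MI4KO mouse 3 it was -0.12.

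The genes whose log2 values were most like those of each member over the 8 mice were taken from the 9122 genes whose mean value reached 5, as a description that includes the difference between groups. The best of 9122 genes over 8 mice can reach a high r without any relation, and no test was made. For Irf4 they were Tjp1 (Pearson r = 0.976), Tspan2 (0.964) and Ccdc88c (0.962). For Irf5 they were Foxp1 (0.976), Icam2 (0.934) and Dgat1 (0.921), and for Irf3 they were Nrp2 (0.952), Jam2 (0.945) and Hdac7 (0.937). Irf2 was nearest to Mif4gd (0.995), Rac1 (0.986) and Arhgap10 (0.982). Irf7 had the lowest best match of the 8 members, Rhbdd1 (0.863), followed by Cd74 (0.856) and Golt1b (0.856). Irf1 was nearest to Tk2 (0.964) and Irf8 to Sec61a2 (0.952).

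Among the genes that act upstream of IRF3, IRF5 and IRF7, Ifih1, which encodes the viral RNA sensor MDA5, was lower in MI4KO mice. Flox values ran from 4.36 to 5.55 (mean 4.75 ± 0.539) and MI4KO values from 2.99 to 3.81 (mean 3.45 ± 0.355, SD, n = 4), without overlap (log2 fold change -0.37, limma unadjusted p = 0.00861, adjusted p = 1.0). It was the 1 gene of 15 tested that passed, where 3.36% of all genes did, and the 1 without overlap, against 1.7% of all genes in this direction. Of the 15, 10 were below 0, against 56.2% of all genes. Their median was -0.02, and 0.01 after scaling to equal sums. The related sensor Ddx58 (RIG-I) was at 5.17 in flox and 4.23 in MI4KO mice (limma unadjusted p = 0.0795). The adaptor Mavs was at 202 in flox and 200.3 in MI4KO mice and the kinase Tbk1 at 14.1 in both.

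The interferons themselves gave almost no reads. Ifnb1, Ifna4, Ifng and Ifnl3, and the cytokines Il4 and Il10, had no read in any mouse, against the 3 reads taken as the smallest detected amount. The receptors were present: Ifnar1 was at 23.9 in flox and 23.4 in MI4KO mice, and Ifngr1 at 28.2 and 26.1. Of the 11 receptors and JAK-STAT partners tested, none passed in either direction and the median log2 fold change was -0.03. Stat2, a partner of IRF9, was at 6.10 in flox mice and at 5.31 in MI4KO mice (limma unadjusted p = 0.168).

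Of the 30 type I interferon targets listed, 22 were tested, and 4 of them were lower in MI4KO mice at an unadjusted p under 0.05, against 2.95% of all genes. Ifit1, of the antiviral IFIT family, was at 2.38 ± 0.967 in flox and 1.40 ± 0.156 in MI4KO mice, and Ifit3 at 4.83 ± 0.726 and 3.27 ± 1.28 (SD, n = 4, limma unadjusted p = 0.0311 and 0.0279). The log2 fold change of Ifit1 went from -0.45 to -0.28 without flox mouse 1 (limma unadjusted p = 0.115), and that of Ifit3 from -0.49 to -0.31 without MI4KO mouse 1 (limma unadjusted p = 0.0908). Ifit1 passed in 12 and Ifit3 in 10 of the 18 alternatives. Rtp4 was at 3.72 ± 0.531 and 2.49 ± 0.458, and Trim30a, a tripartite motif protein, at 2.72 ± 0.180 and 1.99 ± 0.232 (SD, n = 4, limma unadjusted p = 0.00881 and 0.0224), both without overlap, and they passed in 18 and 14 alternatives. All 4 had an adjusted p of 1.0. Groups without overlap and lower in MI4KO mice were found for 2 of the 22 genes and for 1.7% of all genes. Of the 22 genes, 17 were below 0, against 56.2% of all genes, none was higher at this p, and the median was -0.19 where that of all genes was -0.01. The median was -0.12 without flox mouse 2, and -0.25 to -0.12 with each mouse left out. The count of 4 became 1 without MI4KO mouse 1, 2 without flox mouse 1 and 2 after scaling to equal sums. Without flox mouse 1 and MI4KO mouse 3, 2 of the 22 passed, against 4.71% of all genes, and the median was -0.18. Ifi35 had the highest log2 fold change, at 0.25 (limma unadjusted p = 0.182). The values of these genes are low, since the 4 rest on 225 to 481 reads each over the 8 mice, and the list was chosen with earlier results of these data known.

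Of the 27 interferon gamma targets tested, 24 were below 0, against 56.2% of all genes, and none passed an unadjusted p under 0.05, with a median of -0.12. The median was -0.06 without flox mouse 2, when 19 were below 0, and -0.07 without MI4KO mouse 1. Psme2, a proteasome activator subunit, was the 1 of the 27 without overlap, which held for 1.7% of all genes in this direction. Its values were 31.2 to 33.1 in flox mice and 29.2 to 31.0 in MI4KO mice (limma unadjusted p = 0.140). Gbp3, a guanylate-binding protein, was at 5.10 in flox and 3.63 in MI4KO mice (limma unadjusted p = 0.0508). Icam1 had the highest log2 fold change, 0.58, with 34.1 in MI4KO mouse 3, 3.12 to 5.02 in the other 3 MI4KO mice and 3.30 to 5.48 in flox mice. Without MI4KO mouse 3 it was -0.11 (limma unadjusted p = 0.524).

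Among the DNA-binding partners of IRF4 and IRF8, Spi1, which encodes PU.1, was at 0.997 in flox and 1.47 in MI4KO mice (limma unadjusted p = 0.119). Without flox mouse 1, Spi1 and Ppargc1a were the 2 of 9 that passed in limma, both as higher, beside 73 of 11865 genes. The same 2 passed as higher without both flox mouse 1 and MI4KO mouse 3. Batf and Batf3, partners of IRF4 in lymphocytes and dendritic cells, had 7 and 2 reads over all 8 mice. In the main fit Nfatc2 was the 1 of 9 tested that passed, where 3.36% of all genes did. It was at 40.6 ± 6.09 in flox and 29.1 ± 11.3 in MI4KO mice (SD, n = 4, log2 fold change -0.56, limma unadjusted p = 0.0431). It passed in 6 of the 18 alternatives, all of them by limma, and neither in edgeR (unadjusted p = 0.112) nor in DESeq2 (unadjusted p = 0.194). Without MI4KO mouse 3 its log2 fold change was -0.24 (limma unadjusted p = 0.0642). Of 6 tested genes that the paper or work it cites ties to IRF4, none passed in the main fit, and the median was -0.02, or 0.03 after scaling to equal sums. In edgeR 1 of the 6 passed as higher, Ppp1r3c, which encodes the glycogen scaffold PTG, and in DESeq2 none passed. Ppp1r3c also passed as higher in limma without MI4KO mouse 2. In limma without flox mouse 1, Ppargc1a passed as higher. Its main-fit means were 43.9 in flox and 57.7 in MI4KO mice (limma unadjusted p = 0.255). Without MI4KO mouse 3, 1 passed as lower. Without both flox mouse 1 and MI4KO mouse 3, 1 passed in each direction, with Ppargc1a as the higher. The highest in the main fit was Ppp1r3c, whose flox values ran from 222.4 to 283. Among MI4KO mice, 3 lay between 259.8 and 292.6 and mouse 3 reached 1128, and the log2 fold change of 0.64 (limma unadjusted p = 0.10) was 0.14 without that mouse (limma unadjusted p = 0.153). The 8 muscle regulators listed for reference had none past the threshold and a median of -0.03.

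**Figure D4:**
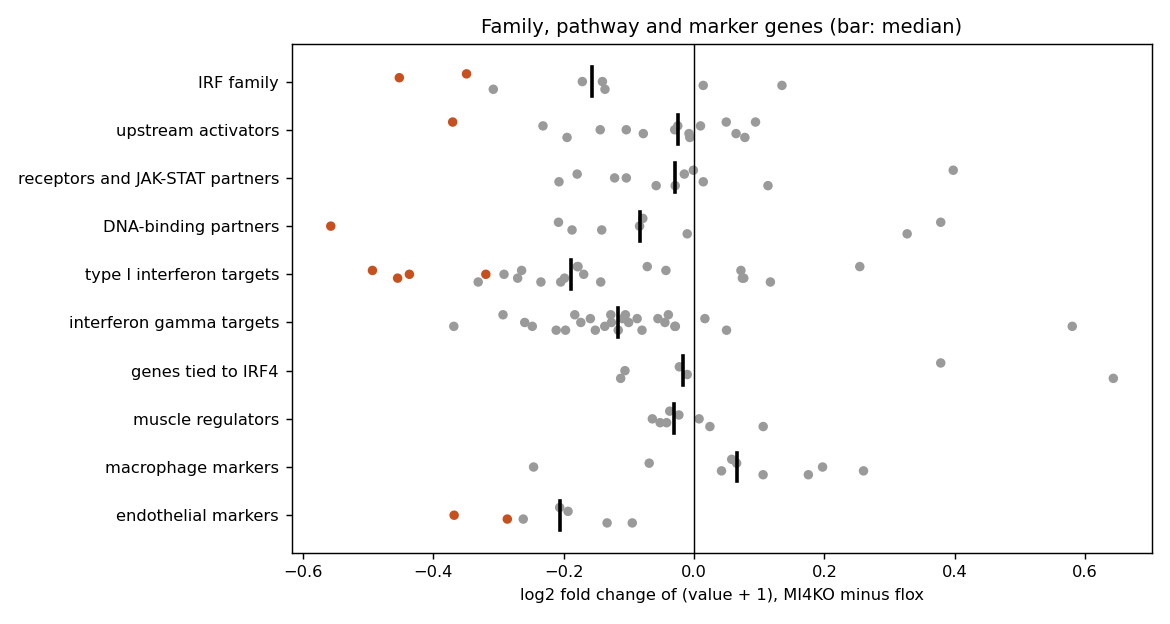
Log2 fold change of (value + 1), MI4KO minus flox, of each tested gene (points, orange at an unadjusted p under 0.05) in the family, in the pathway lists and in the macrophage and endothelial markers, with the list median as a black bar. Of the lists drawn, the type I interferon targets (-0.19) and the endothelial markers (-0.21) have the lowest medians, beside that of the family (-0.16). Markers of other cell types are not drawn, among them the adipocyte markers with a median of -0.33.

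Across all mice, Irf9 varied with the type I interferon targets by both coefficients, and Irf7 by Pearson r alone. Over the 8 mice, log2 Irf9 and the mean log2 of the 22 targets had a Pearson r of 0.854 (exact permutation p = 0.00330, adjusted over 6 relations 0.0198) and a Spearman rho of 0.905 (exact permutation p = 0.00456, adjusted 0.0274). For Irf7, r was 0.808 (exact permutation p = 0.0161, adjusted 0.0484) and rho 0.690 (exact permutation p = 0.0694, adjusted 0.208). Without flox mouse 2 and MI4KO mouse 1, the mice farthest from the median of the targets, r over 6 mice was 0.711 for Irf9 (exact permutation p = 0.106) and 0.529 for Irf7 (exact permutation p = 0.289), so that neither passed without these 2 mice, which were picked as the extremes. With each single mouse left out, r ran from 0.786 to 0.953 for Irf9 and from 0.681 to 0.876 for Irf7. With the group means subtracted, r was 0.799 for Irf9 and 0.786 for Irf7, and groups of 4 mice are too few for a correlation of their own. Flox mouse 2 had the highest Irf7 and Irf9 and the highest targets, and MI4KO mouse 1 the lowest Irf9 and the lowest targets.

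The other 4 relations did not pass. Irf8 and the macrophage markers had r = 0.155 (exact permutation p = 0.714) and rho = 0.0952. Irf5 had r = -0.529 (exact permutation p = 0.181) and rho = -0.548 with the same markers, and Irf4 r = -0.427 (exact permutation p = 0.289) and rho = -0.310. Irf1 and the interferon gamma targets had r = 0.158 (exact permutation p = 0.663) and rho = 0.238. Adjusted over the 6 relations, these p-values were between 0.363 and 0.714 for r. Without MI4KO mice 1 and 3, r of Irf5 and the macrophage markers over 6 mice was -0.865 (exact permutation p = 0.0319, not adjusted).

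**Figure D5:**
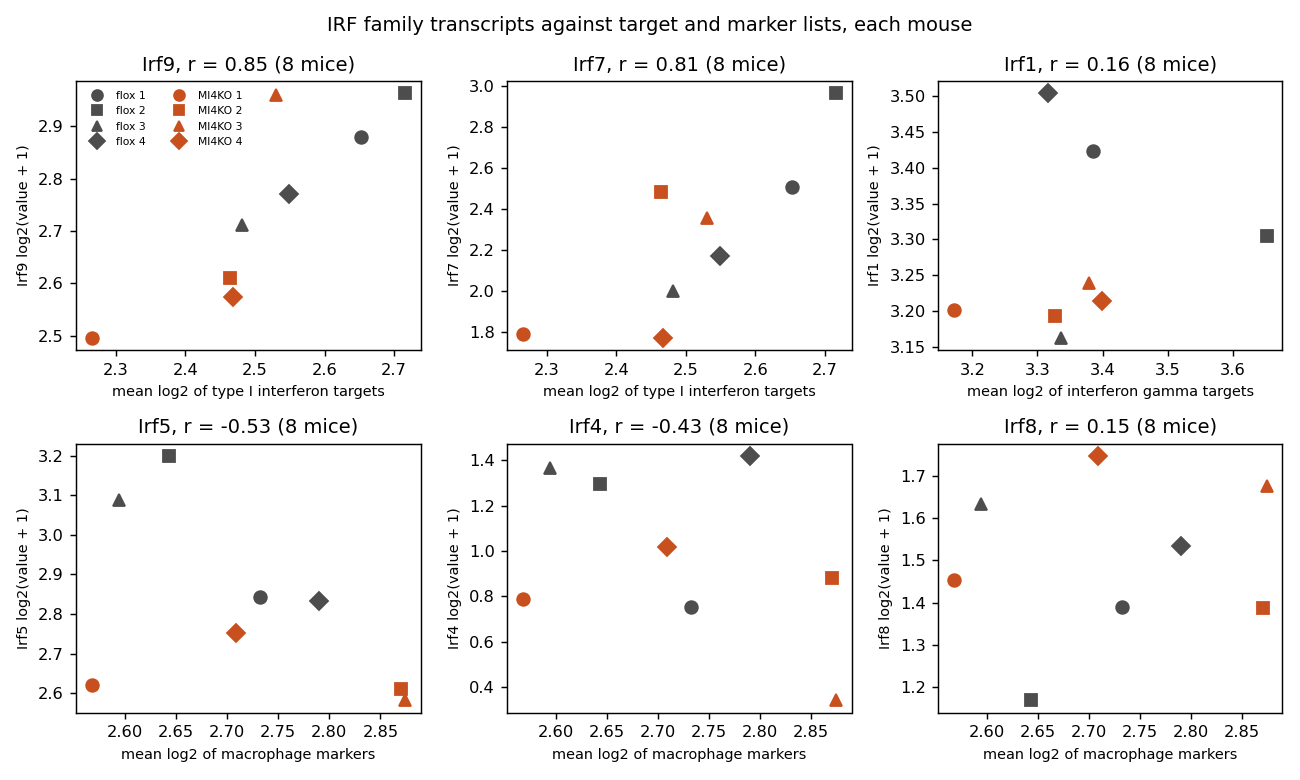
Log2(value + 1) of 6 members against the mean log2(value + 1) of a target or marker list in each of the 8 mice, flox in grey and MI4KO in orange, 1 symbol per mouse number, with Pearson r in the title. Irf9 (0.85) and Irf7 (0.81) rise with the type I interferon targets, and flox mouse 2 is at the upper end of both.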

How the data were processed

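SOL RNA of 4 MI4KO and 4 flox mice was measured, 1 library per mouse. Per the labels and the paper's methods, the authors made stranded mRNA libraries, read 50 bases from 1 end, aligned to UCSC transcripts (mm10) with Bowtie2 2.1.0 and quantified genes with RSEM 1.2.15. The deposited values are a signal in CPM after TMM normalization, which sums to 917785 to 1089208 per mouse. The authors' own fold changes, p-values and FDR fill 3 further columns, which were not used.

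Each value was divided by the value of 1 read in its mouse, which gave whole reads for 100% of values above 0 (tolerance 0.1 read). The limit of 3 reads covers counting error only, and the 95% intervals are limma's, from the spread between mice. No 2 libraries agreed within sampling noise (chi-square per degree of freedom of 6.39 to 56.0). The main test was limma 3.58.1 (R 4.3.3) with a mean-variance trend on log2(value + 1), for genes that reached a value of 1 in 4 or more mice, with Benjamini-Hochberg adjustment over the 11865 genes. Single values were also compared by exact two-sided permutation (scipy 1.17.1). edgeR 4.0.16 (quasi-likelihood) and DESeq2 1.42.0 on the recovered reads were alternatives. Tested on simulated counts with 200 changed genes, limma at an adjusted p under 0.05 called 98 of 98 tested genes changed 4-fold and 89 of 97 changed 2-fold, and 13 unchanged genes among 11757 tested. The changed genes were drawn at random and each gene varied on its own. The counts therefore give no detection rate for genes with as few reads as Irf4, nor for differences that many genes of a mouse share. Transcript lengths, positions and overlaps are from GENCODE M21, and promoters from RefSeq, where all 8 members were matched by symbol. Text names all members, list genes past the limits or without overlap, otherwise the lowest or highest, and genes for their role. Results on 1 further gene of the family and on some other genes under this rule are not reported here. The members and lists were chosen with earlier results of these data known. Alternatives were 2 pseudocounts, no filter, 2 scalings, no trend, the 2 count tests, a covariate for the range of animal numbers, each mouse left out, and flox 1 and MI4KO 3 left out together.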

Additional observations from a re-analysis of the deposited data

How the results depend on the processing

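Irf5 and the other members kept their direction under all 18 alternatives, except Irf2, whose log2 fold change of 0.01 ran from -0.12 to 0.080 with each mouse left out (below 0 without flox mouse 4 or MI4KO mouse 3) and was -0.13 without both flox mouse 1 and MI4KO mouse 3. For Irf4, the log2 fold change ran from -0.60 to -0.31 with each mouse left out. It no longer passed an unadjusted p under 0.05 with median-of-ratios scaling (-0.44), scaling to equal sums (-0.42), edgeR (-0.86), DESeq2 (-0.87) or the mouse number range as a covariate (-0.41). Neither did Irf4 pass without flox mouse 2, 3 or 4 or without MI4KO mouse 1 or 3, and the cause was not tested. The count past the paper's limits, 26 genes (19 lower, 7 higher), was 41 with a pseudocount of 0.5, 71 with 0.1, 65 in edgeR (44 lower, 21 higher), 51 in DESeq2 (32 lower, 19 higher), 41 without flox mouse 1 and MI4KO mouse 3, and 19 to 58 with each mouse left out, highest without MI4KO mouse 4. At an adjusted p under 0.05, 0 genes passed (399 at an unadjusted p under 0.05 in limma), also in edgeR and DESeq2, and 0 to 1 with each mouse left out. The 1 was Hist2h3c2 without MI4KO mouse 2, and 1 other gene, Jmjd7-pla2g4b, passed without flox mouse 1 and MI4KO mouse 3; both were named after their values were seen. Of the relations, r of Irf8 with the macrophage markers ran from -0.0565 to 0.331 with each mouse left out, and r of Irf1 with the interferon gamma targets was -0.120 with group means subtracted. No paired analysis was possible because the animal numbers in the labels are not shared between the groups. Irf4, at 4 to 23 reads per mouse, and Irf8, at 18 to 39, are the members whose precision depth limits most.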

Other observations

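Leading markers of other cell types gave values beside the family. The dendritic cell markers summed to 4.05 to 5.17 over all 8 mice, with Zbtb46 at 3.16 in flox and 3.11 in MI4KO mice, while Flt3, a growth factor receptor of these cells, had 2 reads in all. The macrophage gene F4/80 (Emr1 in the table) was at 0.675 to 0.873 in flox mice and at 0.943 to 1.13 in MI4KO mice without overlap, but was under the limit for testing, and it was singled out after its values were seen. Among all genes tested, 0.371% had no overlap in this direction. Of the 9 macrophage markers tested, 7 were above 0 and 2 below it, Cd163 (log2 fold change -0.25) and Mertk (-0.07). Socs3, an inhibitor of cytokine receptors, was at 2.70 to 3.61 in flox mice and at 2.18 to 6.85 in MI4KO mice (limma unadjusted p = 0.0991). Of the 22 groups of 4 mice examined for a member or list mean, 0 had a mouse past Dixon's limit, and flox mouse 1 for Irf4 came closest. Single list genes were not examined in this way, among them Icam1 and Ppp1r3c, which were far higher in MI4KO mouse 3 than in the other mice. With 4 mice, only a very distant value passes this limit.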
